A study of Mus musculus with 6 samples.

Results

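The MYC, MAX and MXD network was followed here as 10 genes: Myc, Mycn, Max, Mxi1, Mxd1, Mxd3, Mxd4, Mnt, Mlx and Mga. Members were the probe sets whose platform annotation names 1 of these genes alone, which gave 26 of the 45101 probe sets on the array. For each gene the probe set with the highest mean over the 6 arrays stood for it, and the others served as a check. All 10 genes passed the filter on dim signals and were among the 12275 genes tested. Within each gene, probe sets were picked by annotation and mean level, not by the measured difference between the groups. The genes themselves were chosen with earlier results of these data known.

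Expression was measured on Affymetrix arrays in endothelial cells, which form the inner lining of vessels, taken from mouse lung and kept for 16 h at 0.5% oxygen. Control arrays (n = 3) were compared with arrays of cells without HIF-2α (n = 3), an oxygen-regulated transcription factor encoded by Epas1. The knockout cells came from mice with floxed Hif-2a on both alleles and Cre driven by VE-Cadherin, an endothelial gene. The sample descriptions give the controls as carrying the same Cre with 1 floxed and 1 wild-type allele, the series text gives them as floxed on both alleles, and the genotype field calls them wild type. All 6 samples were hypoxic, so they hold no comparison of oxygen levels. Whether the replicate arrays stand for different animals or cultures is not in the labels, and the p-values then cover no more than the spread from array to array.

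MYC and MYCN are transcription factors that bind DNA only as a pair with MAX, at E-box sequences, and drive genes of growth, ribosome production and the cell cycle. The MXD proteins, MXI1 among them, and MNT compete for MAX and recruit the SIN3-HDAC corepressor to the same sites, so the balance of the partners sets the output. MGA pairs with MAX within a polycomb complex, and MLX is a parallel partner of MNT, some MXD proteins and the glucose-sensing MondoA factors. In other cells HIF-2α has been described as favouring MYC activity and HIF-1α as opposing it, in part by inducing MXI1.

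The arrays of a group were not equally alike. The SD over genes of the log2 difference was 0.14 between controls 1 and 3, against 0.31 to 0.68 for the other pairs within a group, and 1 shared axis held 87.1% of the variance within groups. On that axis controls 1 and 3 and knockout 3 lay on one side and control 2 and knockouts 1 and 2 on the other. Epas1 itself had a mean intensity of 9549 ± 90.9 in controls, against 9392 ± 469 in knockouts (SD, n = 3; limma adjusted p = 0.753). The position of its probes against the deleted part was not used here, so the genotype rests on the labels. Of 14 endothelial markers, 13 were over a signal of 16 on every array and Cldn5 on 5 of 6, with summed levels of 178896 to 192817 in controls and 146875 to 162911 in knockouts. Over all genes tested 5.08% fell. Of the 14, 5 fell (Nos3, Tek, Erg, Tie1 and Pecam1, named after their values were seen), 0 rose and 9 did not pass, with a median log2 difference, knockout minus control, of -0.28. The part of this shift in the results below was not tested. All 6 fibroblast and all 5 epithelial markers were under that signal on every array, as were 7 of 8 mural markers and 7 of 8 leukocyte markers. The exceptions were Tagln (50.3 ± 22.1 and 148 ± 70.5) and Cd68 (3925 ± 293 and 971 ± 192 in controls and knockouts).

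The 250 bases before the transcript starts of the members that fell are shown because these were the members called. Whether they share a regulator was not tested. Mxi1 has 3 such windows, of which the first 2 are printed. Windows from RefSeq (GRCm38.p6) were at hand for 9 of the 10 members, 11 windows in all. Capitals mark ACGTG or GCGTG on either strand (CACGT or CACGC when read along the printed strand), the core of the hypoxia response element to which HIF binds. The E-box CACGTG contains ACGTG on both strands and is counted under both motifs.
Mxi1, first start, chr19:53310256-53310505, plus strand: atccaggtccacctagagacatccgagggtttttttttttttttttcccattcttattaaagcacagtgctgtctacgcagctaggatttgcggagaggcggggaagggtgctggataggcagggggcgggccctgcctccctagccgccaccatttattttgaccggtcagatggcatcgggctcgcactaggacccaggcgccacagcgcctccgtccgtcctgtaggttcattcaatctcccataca
Mxi1, the second start, chr19:53329163-53329412, plus strand: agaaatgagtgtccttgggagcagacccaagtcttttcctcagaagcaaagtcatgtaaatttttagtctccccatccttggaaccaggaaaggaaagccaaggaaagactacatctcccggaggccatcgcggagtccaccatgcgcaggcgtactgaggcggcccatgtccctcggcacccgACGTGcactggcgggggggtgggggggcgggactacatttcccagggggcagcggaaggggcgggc
Mxd1, chr6:86669160-86669409, minus strand: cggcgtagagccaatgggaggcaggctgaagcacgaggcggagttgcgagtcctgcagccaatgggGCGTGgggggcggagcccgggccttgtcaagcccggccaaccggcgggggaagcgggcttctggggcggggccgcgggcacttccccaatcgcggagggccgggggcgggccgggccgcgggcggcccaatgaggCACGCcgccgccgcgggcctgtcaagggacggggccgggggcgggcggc
Mxd4, chr5:34187711-34187960, minus strand: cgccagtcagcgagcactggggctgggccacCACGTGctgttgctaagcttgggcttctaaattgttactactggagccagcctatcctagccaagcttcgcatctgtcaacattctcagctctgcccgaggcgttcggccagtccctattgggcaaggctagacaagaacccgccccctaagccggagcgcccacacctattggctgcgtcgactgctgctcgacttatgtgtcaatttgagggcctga

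The first Mxi1 window held no match, the second held ACGTG at 66 to 62 bases before the start, and the third (chr19:53329445-53329694) held ACGTG at 25 to 21 bases before it. In Mxd1 the matches lay 184 to 180 and 49 to 45 bases before the start. The match of Mxd4, 219 to 214 bases before its start, was a full E-box. Over all members 7 of 11 windows held ACGTG or GCGTG and 3 held CACGTG (Mxd4, Mnt and Mlx), whereas 38.6% and 6.02% of all 32851 windows of this length did. A match is a string of letters and not a measured binding site.

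Of the 10 members, 3 fell in the knockout arrays, 0 rose and 7 did not pass the test. Those that fell were Mxi1, Mxd1 and Mxd4, all MXD repressors, while Myc and Max, the activating pair, did not pass. Nor did the repressors Mxd3 (log2 difference 0.52, all knockout arrays above all controls) and Mnt (-0.08), or the activator Mycn (-0.19). Over all genes tested 13.7% were called by limma at an adjusted p under 0.05, 8.64% higher and 5.08% lower. With the lowest 60% of probe sets left out, 20% of genes were called, and the same 3 members. Over probe sets the test called 7.65%, and 3 of the 20 member probe sets past the filter, the brightest of each of the same 3 genes. The median log2 difference, knockout minus control, was -0.13 over the members and 0.0071 over all genes. In bulk RNA, fewer cells that express a gene and less of its RNA per cell cannot be told apart. Levels are in the deposited intensity units, and levels of different genes were not set against each other.

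**Figure D1:**
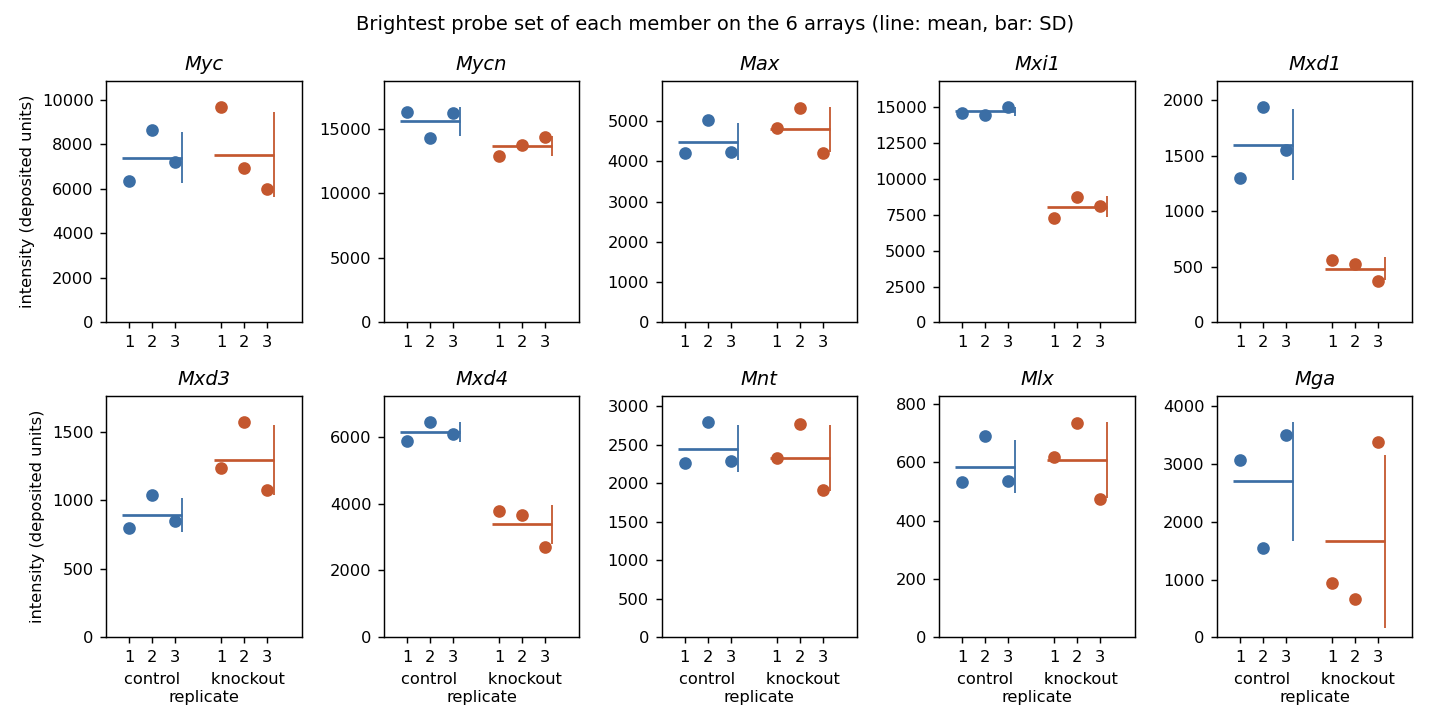
Intensity (deposited units, linear axis from 0) of the brightest probe set of each of the 10 members on the 3 control (blue) and 3 knockout (orange) arrays, with the mean as a line and the SD as a bar. Mxi1, Mxd1 and Mxd4 have all knockout arrays under all controls, Mxd3 has them above, and the other 6 overlap.

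Myc, the founding member, read 6376, 8637 and 7213 on controls 1 to 3 and 9691, 6942 and 5991 on knockouts 1 to 3. Both the highest and the lowest value came from knockout arrays, and the groups overlapped. The log2 difference was 0.01 ± 0.22 (SE; 95% interval -0.58 to 0.59; limma adjusted p = 0.983), so a change of up to about 0.6 in either direction was within the error. Its sign turned without control 1 (-0.10), control 3 (-0.0067) or knockout 1 (-0.19).

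Mycn, a MYC paralogue best known from the developing nervous system, was measured by 3 probe sets. The brightest gave 16277, 14309 and 16201 in controls and 12872, 13728 and 14408 in knockouts, whereas the other 2 stayed under a signal of 16 on every array. Controls 1 and 3 were the highest arrays, and control 2 lay among the knockouts. The difference was -0.19 ± 0.07 (95% interval -0.38 to 0.000695; limma adjusted p = 0.155). The Mycn level therefore rests on 1 probe set, which shares its annotated accession with 1 of the 2 dim ones.

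Max, the obligate partner, read 4214, 5019 and 4239 in controls and 4841, 5332 and 4211 in knockouts. The groups overlapped, with knockout 3 the lowest of all arrays. The difference was 0.09 ± 0.12 (95% interval -0.22 to 0.41; limma adjusted p = 0.664).

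Mxi1, a MAX partner that represses MYC targets and a known hypoxia-induced gene, had the clearest separation of the groups. Its signal was 14626, 14488 and 15037 in controls and 7291, 8741 and 8156 in knockouts. Every knockout array lay far under every control, and the control arrays lay close together. The mean fell from 14717 ± 285 to 8062 ± 730 (SD, n = 3), and the log2 difference was -0.87 ± 0.07 (SE, knockout minus control; limma adjusted p = 0.00761). Of all genes tested, 11.5% differed by as much or more. A second, dimmer Mxi1 probe set read 999, 2339 and 1252 in controls and 351, 599 and 402 in knockouts. It also separated the groups, with a difference of -1.67 ± 0.40, but did not pass over probe sets (limma adjusted p = 0.0802). Without control 1 or control 3 the call of Mxi1 ended (limma adjusted p = 0.0519 and adjusted p = 0.0528), with differences of -0.88 and -0.86. It held without any other single array.

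Mxd1, a repressor linked to cell differentiation, had the largest difference among the members that were called. Its brightest probe set read 1303, 1939 and 1554 in controls and 559, 525 and 369 in knockouts. The lowest control was more than 2 times the highest knockout array. The mean of controls was 3.30 times that of knockouts (1599 ± 320 against 484 ± 101), and the log2 difference was -1.69 ± 0.23 (limma adjusted p = 0.0184). A difference of that size or more was found in 1.71% of all genes tested. A second probe set with the same accession gave 1242, 2191 and 1604 in controls and 489, 474 and 221 in knockouts. Its difference was -2.09 ± 0.40, just outside the threshold over probe sets (limma adjusted p = 0.0524), and the third Mxd1 probe set was under a signal of 16 on every array. With single arrays left out, the call of Mxd1 held without control 2 or knockout 3 and ended without any of the other 4 (differences -1.83 to -1.70, limma adjusted p = 0.0506 to 0.0891).

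Mxd4, another MXD repressor, read 5873, 6445 and 6093 in controls and 3780, 3648 and 2708 in knockouts. The groups were apart, with knockout 3 the lowest. The mean fell from 6137 ± 288 to 3379 ± 584, a log2 difference of -0.87 ± 0.15 (limma adjusted p = 0.0295). A dimmer probe set with the same accession gave a similar difference (-0.92 ± 0.32, limma adjusted p = 0.163 over probe sets). The third, with signals of 118 to 304, differed by -0.11 ± 0.39, and with the mean of its probe sets in place of the brightest the call of Mxd4 ended (difference -0.63, limma adjusted p = 0.201). With no filter on dim probe sets it also ended (limma adjusted p = 0.056). Of the single arrays left out, the call held without knockout 3 and ended without each of the other 5 (limma adjusted p = 0.0635 to 0.117, differences -0.96 to -0.84).

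Mxd3, the MXD protein found in dividing cells, did not go the way of the other 3. It read 799, 1035 and 847 in controls and 1238, 1572 and 1073 in knockouts. All knockout arrays were above all controls, with control 2 and knockout 3 the nearest to each other. The difference was 0.52 ± 0.18 (95% interval 0.05 to 0.99), and it did not pass over all genes (limma adjusted p = 0.13). The other 2 probe sets differed in the same direction, by 1.06 ± 0.22 and 0.64 ± 0.21 (in the fit over probe sets, limma adjusted p = 0.0624 and adjusted p = 0.153). The dimmer of these, with the difference of 0.64, was under a signal of 16 on every control array and over it on every knockout array. Its difference therefore starts from a control level too dim to count as signal here. Groups that did not overlap were found in 4 of the 10 members, Mxd3 and the 3 that fell, and in 36.2% of all genes tested (23.4% higher and 12.8% lower in knockouts), a share near that of the members.

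**Figure D2:**
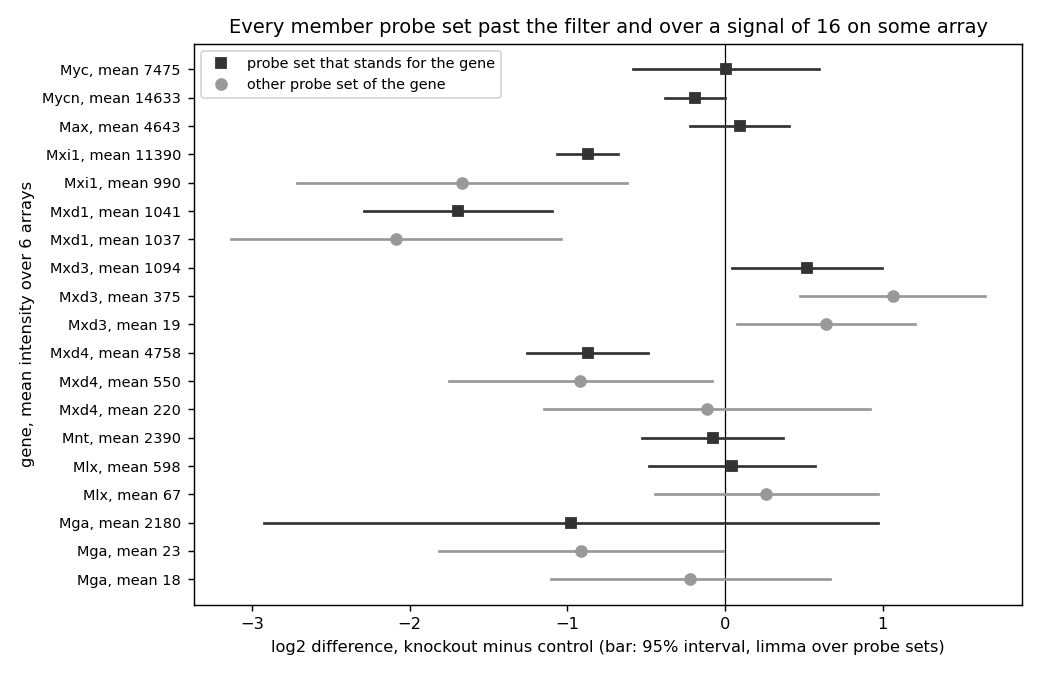
Log2 difference, knockout minus control, of each member probe set that passed the filter and exceeded a signal of 16 on some array, with its 95% interval. Squares stand for the gene and circles are its other probe sets. Those of Mxi1 and Mxd1 all lie below 0 and those of Mxd3 all above 0, whereas 1 of the 3 Mxd4 probe sets shown lies near 0 (-0.11). The dimmest Mxd3 probe set was under a signal of 16 on every control array.

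Mnt, a broadly expressed repressor that pairs with MAX or MLX, read 2260, 2797 and 2284 in controls and 2326, 2763 and 1908 in knockouts. The groups overlapped, and the difference was -0.08 ± 0.17 (95% interval -0.52 to 0.37; limma adjusted p = 0.832). Without control 2 or knockout 3 its sign turned (0.02 and 0.06). The other Mnt probe set was under a signal of 16 throughout.

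Mlx read 532, 691 and 535 in controls and 619, 734 and 475 in knockouts. Knockout arrays held both the highest and the lowest value, and the difference was 0.04 ± 0.20 (95% interval -0.48 to 0.57; limma adjusted p = 0.911). A dimmer probe set differed by 0.26 ± 0.27. The sign of Mlx turned without control 1 (-0.02), control 3 (-0.01) or knockout 2 (-0.10).

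Mga, the scaffold that brings MAX into polycomb complex PRC1.6, varied most within the groups. It read 3066, 1538 and 3497 in controls and 948, 659 and 3374 in knockouts. Knockout 3 was among the high controls, and control 2 lay below it. The difference was -0.98 ± 0.73 (95% interval -2.90 to 0.95; limma adjusted p = 0.423). The highest arrays were controls 1 and 3 and knockout 3, the same arrays that lay together on the shared axis. Without knockout 3 the difference was -1.67 (limma adjusted p = 0.0721), and with control 2 left out as well it was -2.03 (limma adjusted p = 0.0224). That last fit sets controls 1 and 3 against knockouts 1 and 2, which lie on opposite sides of the shared axis. For a gene that follows the axis, a gap is thus built into the choice of arrays. The same fit called 37.9% of all genes tested. When the level of the bioB and bioC spike-in controls on each array entered the fit, the difference of Mga was 0.66 (limma adjusted p = 0.636), so its direction is not settled by these arrays. Its 2 other probe sets past the filter had means of 35.7 and 20.6 in controls and 10.1 and 16.2 in knockouts.

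**Figure D3:**
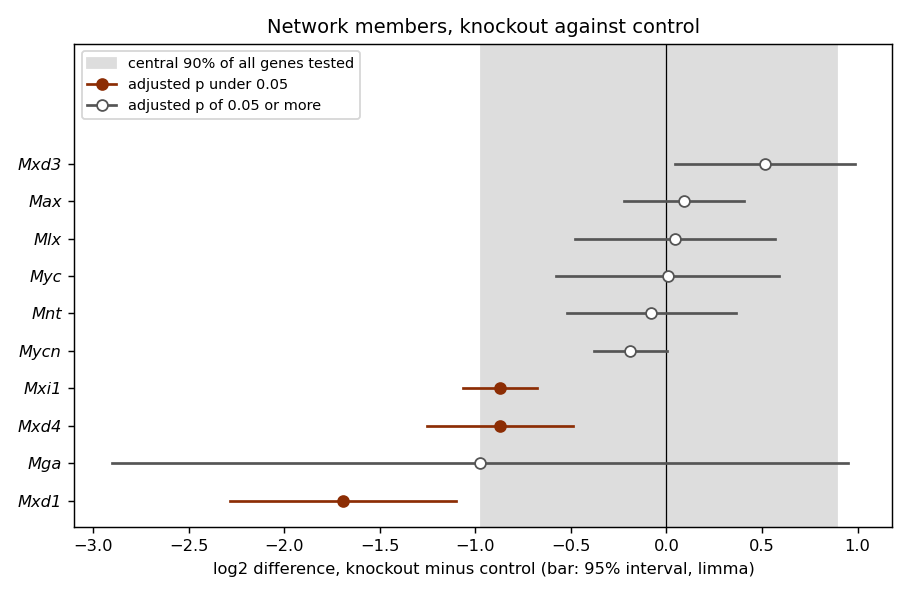
Log2 difference, knockout minus control, of each member with its 95% interval. Filled points passed the limma test over all genes, and the grey band holds the central 90% of all genes tested (-0.97 to 0.89). Mxd1 lies well outside the band and Mga (-0.98) at its lower edge, with an interval from -2.90 to 0.95, while Mxi1 and Mxd4 lie inside near that edge.

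The mean control level of the members that fell was 1.83 times that of knockouts for Mxi1, 3.30 times for Mxd1 and 1.82 times for Mxd4. All 3 differences kept their direction in every one of the 21 alternatives run, which included leaving out each array. As every knockout array lay under every control in these 3 genes, leaving out or averaging arrays could not turn the sign. Their direction there is no separate result. The calls were less steady than the differences. Mxi1 was called in 17 alternatives, Mxd1 in 16 and Mxd4 in 13. With controls 1 and 3 averaged into 1 sample 0 of the 10 members passed (limma adjusted p = 0.0523, adjusted p = 0.074 and adjusted p = 0.112 for these 3), and 196 of all genes did. The level of the spike-in controls on the log2 scale was 10.66 to 10.88 in controls and 10.86 to 11.08 in knockouts. With it as a covariate the differences of Mxi1, Mxd1 and Mxd4 were -0.87, -2.24 and -1.18, and Mxi1 no longer passed (limma adjusted p = 0.058). Of all genes called, 36.9% were then higher in knockouts, against 63% without the covariate. Under array weights 8 members passed, all but Mnt and Mlx, with Myc at 0.48 and Mga at -1.57 (limma adjusted p = 0.0342 and adjusted p = 0.0115). That fit called 59.7% of all genes tested.

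**Figure D4:**
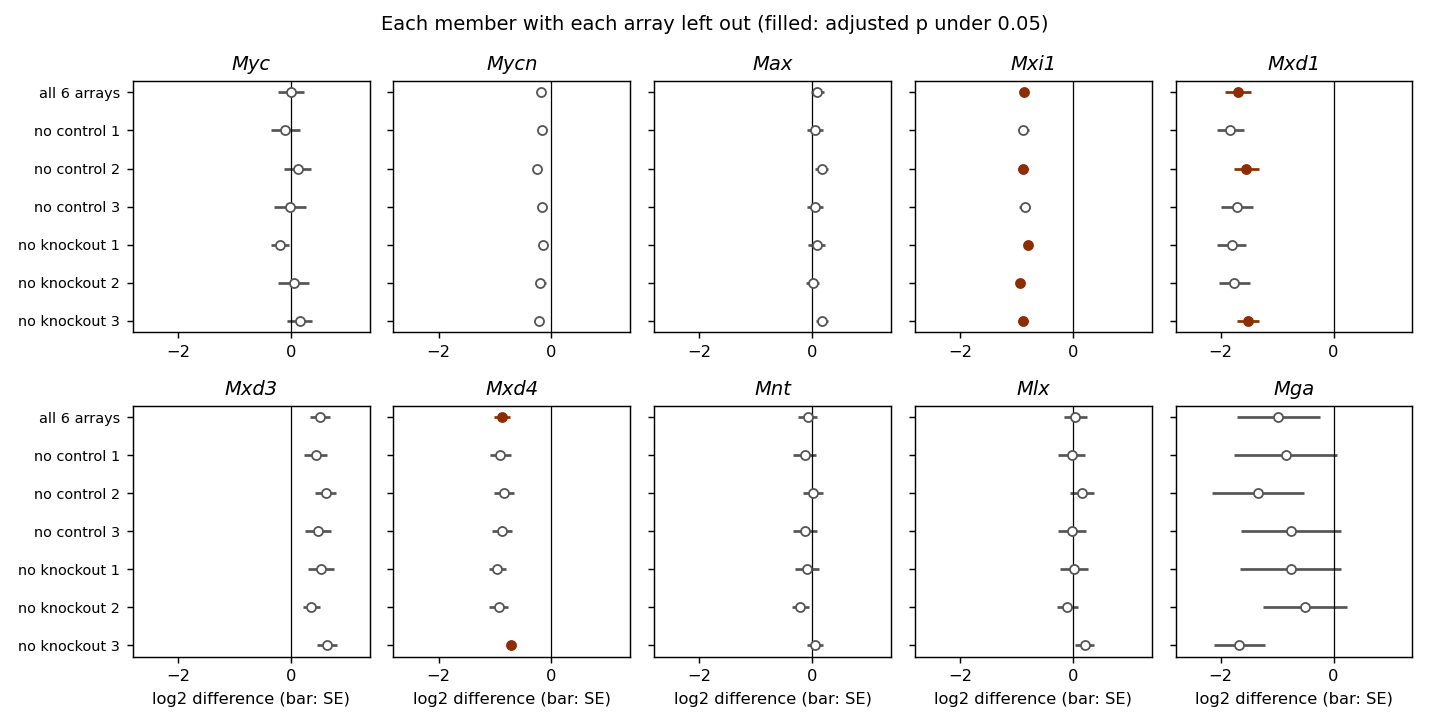
Log2 difference of each member, with its SE, over all 6 arrays and with each array left out in turn. Filled points passed the limma test. Mxi1, Mxd1 and Mxd4, whose groups do not overlap, cannot cross 0 here. Mxi1 stays between -0.93 and -0.80, while Mga moves between -1.67 and -0.50.

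The tested genes whose profile over the 6 arrays was nearest to that of Mxi1, by the distance between centred log2 profiles, were Adamts4, Apold1 and Etl4 (0.09, 0.14 and 0.16 log2 units, against 1.19 for the median gene). Adamts4, a secreted metalloprotease, read 24491, 24592 and 25463 in controls and 12377, 13994 and 13145 in knockouts. Apold1, an early-response gene of endothelial cells, differed by -0.83 ± 0.05, and Etl4 by -0.98 ± 0.09, both called by limma (adjusted p = 0.00429 and adjusted p = 0.01). Nearest to Myc were Golt1b, Cap1 and Tm2d1, at distances of 0.20 to 0.21, against 0.71 for the median gene. None of these 3 passed the limma test (differences -0.10 to 0.09, adjusted p = 0.779 to 0.883), and Golt1b, like Myc, was highest in knockout 1 and lowest in knockout 3. The profiles used for the choice hold the difference between the groups. The differences and calls of the genes nearest to Mxi1 and Myc thus follow from the choice and are no separate result.

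Among genes commonly described as induced by MYC, more rose than fell in the knockout arrays. Of 34 tested, 15 rose, 1 fell and 18 did not pass, a share called of 47.1% against 13.7% of all genes. The median log2 difference was 0.35, against 0.0071 over all genes, and 29 of the 34 differences were above 0, as were 62.0% of those of all genes tested. All genes tested include dim ones, which lower the background share called and the background median. How dim genes move the 62.0% above 0 was not tested, and many of them had small differences above 0. With the lowest 60% of probe sets left out, 17 genes of the list were called. Over all genes the share called was then 20% and the median 0.051. Nop56, a core protein of the small nucleolar particles that methylate ribosomal RNA, read 13655, 13898 and 13778 in controls and 18947, 19958 and 20236 in knockouts. It rose by 0.52 ± 0.03 on the log2 scale (limma adjusted p = 0.00337). Pa2g4, a growth-regulated protein of the nucleolus, rose by 0.56 ± 0.06, and Rrp9, which binds the U3 small nucleolar RNA, by 2.07 ± 0.25 from a mean of 165 ± 37.8. Mthfd2, a mitochondrial enzyme of folate metabolism, rose by 0.78 ± 0.10. The 1 gene that fell, singled out after its values were seen, was Ccnd2, a G1 cyclin (-0.44 ± 0.08, limma adjusted p = 0.0321).

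The count of called MYC-induced genes depended on the arrays used. It was 1 without control 1, 2 without control 3 or knockout 1, 5 without knockout 2, 10 without control 2 and 18 without knockout 3. The spike-in covariate left 2, and with controls 1 and 3 averaged it was 1. Proliferation markers moved with this list: 6 of 9 tested rose, against 8.64% of all genes tested, and 0 fell. Their summed level was 88796 to 96051 in controls and 120406 to 129739 in knockouts. Mcm5 and Mcm2, subunits of the replication helicase, rose by 0.78 ± 0.09 and 0.88 ± 0.12, and Birc5, a mitotic regulator, by 0.54 ± 0.07. Pcna, the DNA polymerase clamp, rose by 0.20 ± 0.03, whereas Mki67 and Top2a, general markers of cycling cells named after their values were seen, differed by -0.33 ± 0.59 and 0.04 ± 0.34. The 6 calls came down to 0 without control 1 or knockout 1, 1 without control 3 and 4 without control 2 or knockout 2. They also came down to 0 with the spike-in covariate or with controls 1 and 3 averaged. The part of cycling cells in the MYC-induced list was not tested.

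Genes commonly described as repressed by MYC showed no common direction. Of 9 tested, 1 rose, 2 fell and 6 did not pass, with a median of -0.06. Ndrg1, a hypoxia-induced gene repressed by MYC proteins, fell by 0.39 ± 0.04 and Cdkn1b, an inhibitor of cyclin-dependent kinases, by 0.23 ± 0.04 on the log2 scale. Thbs1, an inhibitor of vessel growth, rose by 0.69 ± 0.08. Cdkn2b, another kinase inhibitor, did not pass (-0.40 ± 0.17, limma adjusted p = 0.182). The 3 calls became 0 without knockout 1 and 1 without any 1 of the controls.

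Among the cofactors, 5 of 15 tested coactivator genes of MYC passed, 3 higher and 2 lower, with a median of 0.09. The share called was 33.3%, against 13.7% of all genes tested. Ruvbl1, an ATPase of the acetyltransferase complexes that MYC recruits, read 4841, 5275 and 4145 in controls and 8396, 9562 and 7363 in knockouts. It rose by 0.83 ± 0.14 (limma adjusted p = 0.0296), its partner Ruvbl2 by 0.77 ± 0.13, and Wdr5, a chromatin adaptor that contacts MYC, by 0.68 ± 0.12. The acetyltransferase Ep300 and the NuA4 subunit Epc1 fell by 0.28 ± 0.04 and 0.20 ± 0.03. Ruvbl2 is named to complete the 5 after its values were seen. All 5 calls of this list ended without control 1, control 3, knockout 1 or knockout 2, where 0 genes of it passed in each case, and 2 passed without control 2.

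Of the SIN3-HDAC corepressor that MXD proteins recruit, 0 of 13 genes passed the limma test, against 13.7% of all genes tested. In this list 3 were at an unadjusted p under 0.05: Rbbp4 (0.21 ± 0.07), Ing1 (0.12 ± 0.04) and Sap30 (-0.40 ± 0.15). The list had a median of -0.01. Its count of called genes became 1 without knockout 2, 2 with control 2 and knockout 3 both left out and 6 with array weights. These fits called 7.93%, 37.9% and 59.7% of all genes tested. Arid4b, a SIN3-associated factor, had a difference of -1.85 ± 0.78 with a wide spread (1506 ± 630 in controls, 492 ± 442 in knockouts; limma adjusted p = 0.183).

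Of 16 genes that set the turnover of MYC protein, 4 rose, 2 fell and 10 did not pass, with a median of 0.07. The share called was 37.5%, against 13.7% of all genes tested. Plk1 and Aurka, mitotic kinases that also stabilise MYC proteins, rose by 1.34 ± 0.23 and 1.03 ± 0.18. Skp2, a ubiquitin ligase subunit, rose by 0.63 ± 0.11, and Btrc, another, fell by 0.67 ± 0.07 on the log2 scale (limma adjusted p = 0.0109). These mitotic kinases moved with the proliferation markers above. The count of 6 became 0 without control 1 or control 3, 2 without knockout 1, 3 without control 2 or knockout 2, and 10 without knockout 3.

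Partners of MGA in PRC1.6 had 2 of 10 genes higher and 0 lower, with a median of 0.24. The share called was 20%, against 13.7% of all genes tested. E2f6, the DNA-binding repressor of the complex, read 2193, 2171 and 2217 in controls and 3049, 3201 and 2703 in knockouts, a rise of 0.44 ± 0.07 (limma adjusted p = 0.0259). The other was Wdr5. L3mbtl2 (0.87 ± 0.21, limma adjusted p = 0.0609) and Yaf2 (-0.56 ± 0.12, limma adjusted p = 0.0505) did not pass. Leaving out control 1, control 3, knockout 1 or knockout 2 left 0 calls in this list, leaving out control 2 left 1, and leaving out knockout 3 gave 4.

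Of 4 further direct partners tested, Mlxip, which encodes the MLX partner MondoA, rose from 1029 ± 139 to 1649 ± 185 (0.68 ± 0.13, limma adjusted p = 0.0408). Mycbp (0.06 ± 0.08), Zbtb17 (0.10 ± 0.23), which encodes the MYC-binding factor MIZ1, and Mycbp2 (-1.28 ± 0.62) did not pass. Of 3 genes described as targets of MLX and its partners, Klf10, a transcription repressor, fell by 0.24 ± 0.03 on the log2 scale, and Txnip, the best known of them, did not pass (-0.09 ± 0.07, limma adjusted p = 0.445). Pklr was under a signal of 16 on every array. The calls of both Mlxip and Klf10 ended without control 1, control 3, knockout 1 or knockout 2, and that of Klf10 also without control 2. Of the HIF subunits, 0 of 3 passed the limma test and 1 was at an unadjusted p under 0.05: Arnt, the shared partner, at -0.36 ± 0.08 (limma adjusted p = 0.0534), beside Hif1a at -0.37 ± 0.17 and Epas1 at -0.02 ± 0.04. The count became 1, lower in knockouts, without knockout 3, under 75th percentile scaling, with a pseudocount of 1 or with the mean of probe sets. It was also 1, lower, with the replicate number as a block, and 3 with array weights, which called 59.7% of all genes tested.

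**Figure D5:**
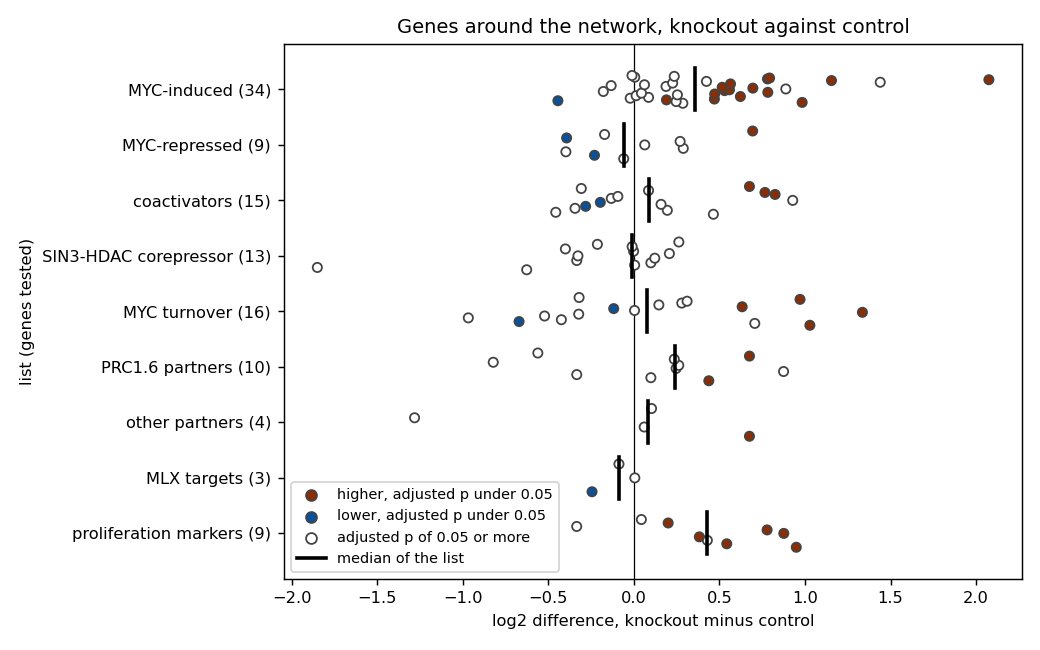
Log2 difference, knockout minus control, of each tested gene in the lists around the network, with the median of each list as a bar. Filled red and blue points passed the limma test as higher or lower. The MYC-induced list, with a median of 0.35, holds 15 of its 34 genes as higher, and the SIN3-HDAC corepressor holds 0 called genes.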

How the data were processed

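The table the authors deposited holds 1 linear intensity per probe set and array, 3 arrays per group. MAS5 and GCRMA are named in the submitters' processing notes, without versions or steps. From the values, the arrays were already normalized, so none was added. The platform annotation gave 1 gene to 34958 probe sets, several to 932 and none to 9211, which it does not list, and 34754 of the first kind matched a current gene number.

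Values were taken as log2(intensity + 16), which understates changes of dim genes. The lowest 40% of probe sets by mean over all 6 arrays were left out, and the brightest probe set stood for a gene. Groups were compared with limma (3.58.1 in R 4.3.3; two-sided, Benjamini-Hochberg over 12275 genes, threshold 0.05). A fit over 27015 probe sets checked the others. Scripts were tested on simulated data with noise drawn separately for each gene and array. Such data lack the shared axis of these arrays, so the test does not cover calls under it. Precision is limited by how few arrays there are.

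The members, lists and alternatives were chosen with earlier results of these data known. Text names all members, up to 4 genes per list with the smallest p, the 3 nearest profiles to Myc and Mxi1, and the brightest markers of other cells above a signal of 16. Genes named outside this rule complete a small count or are marked as singled out. Figures used matplotlib 3.10.9.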

Additional observations from a re-analysis of the deposited data

How the results depend on the processing

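The main fit called 1684 genes and 3 members. The number of called genes was 883 with no filter on dim probe sets, 7334 with array weights, 2995 with the replicate number as a block, 445 with the spike-in covariate, 196 with controls 1 and 3 averaged, and 4647 without control 2 and knockout 3. With single arrays left out it ran from 207 to 3009. Called members numbered 8 with array weights, 0 with controls 1 and 3 averaged and 6 without control 2 and knockout 3, and 0 to 3 with single arrays left out. Of all genes tested, 59.7%, 1.6% and 37.9% were called in the first 3 of these fits. The cause of these moves was not tested. Same-numbered arrays went together in replicates 2 and 3 but not in replicate 1 (correlation of deviations 0.84, 0.80 and -0.47). Whether the numbers pair the samples is therefore not settled. The block added Mxd3 to the called members (limma adjusted p = 0.0408).

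Signs turned only in members that were not called, all of them with groups that overlap. In the called members, whose groups do not overlap, leaving out arrays could not turn the sign. Myc was -0.40 with the spike-in covariate and -0.051 with controls 1 and 3 averaged, and ran from -0.19 to 0.16 with single arrays left out. Max was -0.19 with the spike-in covariate. Mnt was 0.013 with array weights (gene-by-gene method) and 0.16 with control 2 and knockout 3 both left out, and ran from -0.21 to 0.058 with single arrays left out. Mlx was -0.42 with the spike-in covariate and -0.016 with controls 1 and 3 averaged, and ran from -0.10 to 0.21. Mga was 0.66 with the spike-in covariate. Under the quantile and 75th percentile scalings no member changed sign or call.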

Other observations

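Several other genes of the lists, singled out after their values were seen, were high on the same arrays as Mga. Mycbp2, a large ubiquitin ligase that binds MYC, read 1593, 959 and 1903 in controls and 533, 286 and 1248 in knockouts. Cip2a, an inhibitor of the phosphatase PP2A that protects MYC protein, read 4842, 2119 and 4814 in controls and 2052, 1581 and 6268 in knockouts. Wdr43, a nucleolar protein, read 5162, 3222 and 5060 in controls and 3846, 2754 and 7757 in knockouts. In each of these genes control 2 was lower than controls 1 and 3, and knockout 3 was the highest knockout array. None of the 3 passed the limma test (adjusted p = 0.232, adjusted p = 0.737 and adjusted p = 0.986, with 0 at an unadjusted p under 0.05).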
